A study of Mus musculus with 227 samples.

Results

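Adenosine receptors, cyclic nucleotide phosphodiesterases and the transcription factor gene Crem were followed across a drug screen in mouse cerebrocortical cultures. The group held 9 genes of the 31689 in the count table: Adora1, Adora2a and Adora2b, Pde4a, Pde4b, Pde4d, Pde10a and Pde1b, and Crem. Each symbol matched 1 row of the table. The genes were chosen with results of these data known, with attention to the xanthine drugs Aminophylline, Theophylline, Oxtriphylline and Dimenhydrinate, to Formoterol and to CE-326597. Values of the 9 genes in those 6 libraries are therefore given as a description, with no p-value of their own. Relations taken over all libraries include these 6.

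The series held RNA-seq libraries of neurons and glia dissociated from embryonic day 16.5 cerebral cortex, all from F1 embryos of FVB/N females and C3B6F1 males. At 21 days in vitro the cultures received 1 of 218 drugs or vehicle (0.2% DMSO) for 8 h. Vehicle was represented by 9 libraries and every drug by a single one, and doses were not given in the sources used here. The labels do not say whether the vehicle libraries came from separate dissections, so p-values measure the spread between these libraries, which may be technical.

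Adenosine leaving active or stressed cells binds receptors on neurons and glia. The receptor encoded by Adora1 lowers cyclic AMP through Gi, whereas those encoded by Adora2a and Adora2b raise it through Gs. Theophylline, a methylxanthine, blocks these receptors and inhibits phosphodiesterases. Aminophylline combines theophylline with ethylenediamine, Oxtriphylline is its choline salt, and Dimenhydrinate pairs 8-chlorotheophylline with the antihistamine diphenhydramine. Formoterol is an agonist of the beta2 adrenergic receptor, which couples to Gs. The PDE4 enzymes hydrolyse cyclic AMP, and PDE10A and PDE1B hydrolyse cyclic AMP and cyclic GMP, PDE1B under calcium and calmodulin. Cyclic AMP activates protein kinase A, which phosphorylates CREB. Crem belongs to the CREB family, and an internal promoter of the gene that responds to cyclic AMP yields the short repressor ICER.

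Total counts ran from 22019878 to 65189712 reads per library. Library names carry 9 run codes, 3 of which had no vehicle library and none more than 2. Expression is given as CPM, the reads of a gene scaled to the library total, and levels of different genes are compared only as RPKM, which also divides by transcript length. The fewest reads for any of the 9 genes in any library were 58, for Adora2a with Nilotinib. Markers of excitatory neurons (7 of 7), inhibitory neurons (6 of 6) and astrocytes (7 of 7) were above 1 CPM in the vehicles. All 9 markers of striatal projection neurons were above 1 CPM too, with sums of 236 to 347 CPM, although the label reads cortex. Of the 5 endothelial markers, Flt1 averaged above 1 CPM in the vehicles, and Pecam1, Cdh5 and Tek averaged below it. The remaining one, Cldn5, was at 0 in all vehicles. The 6 microglial markers summed to 3.39 to 18.4 CPM in the vehicles. In these bulk libraries, fewer cells of a type and less RNA per cell cannot be told apart.

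The gene models lie on mm10 (GENCODE vM21) as follows. Adora1 (ENSMUSG00000042429.8) spans chromosome 1 from 134199223 to 134235431 on the minus strand, Adora2a (ENSMUSG00000020178.5) chromosome 10 from 75316877 to 75334784 on the plus strand, and Adora2b (ENSMUSG00000018500.2) chromosome 11 from 62248984 to 62266453 on the plus strand. Pde4a (ENSMUSG00000032177.14) lies on chromosome 9 from 21165714 to 21213248, Pde4b (ENSMUSG00000028525.14) on chromosome 4 from 102087543 to 102607259, and Pde4d (ENSMUSG00000021699.15) on chromosome 13 from 108449948 to 109953461, all on the plus strand. Pde10a (ENSMUSG00000023868.13) lies on chromosome 17 from 8525372 to 8986648 and Pde1b (ENSMUSG00000022489.5) on chromosome 15 from 103503034 to 103530052, both on the plus strand. Crem (ENSMUSG00000063889.14) lies on chromosome 18 from 3266048 to 3337748 on the minus strand. Counts were per gene, so the ICER transcripts and the longer forms of Crem were not separated.

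Per length, Pde1b and Adora1 were the most abundant of the 9 genes in vehicle cultures, and Crem the least. Pde1b had 36.2 ± 2.42 RPKM and Adora1 36.2 ± 4.60 RPKM (SD, n = 9), and their ranges overlapped. Pde4a followed at 16.8 ± 1.28 RPKM, Pde4b at 12.1 ± 1.178, Pde4d at 10.3 ± 0.611 and Pde10a at 9.51 ± 0.663. Adora2a had 7.68 ± 1.76 RPKM, Adora2b 6.00 ± 0.730 and Crem 2.86 ± 0.248. Neighbours in this order had separate ranges over the 9 vehicles only between Adora1 and Pde4a, between Pde4a and Pde4b, and between Adora2b and Crem.

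The lowest, median and highest vehicle values give the baseline for each gene. Adora1 ranged from 175 through 212 to 248 CPM, Adora2a from 11.2 through 19.0 to 26.1 CPM, and Adora2b from 9.47 through 10.9 to 13.1 CPM. Pde4a ranged from 83.2 through 97.9 to 100.7 CPM, Pde4b from 79.1 through 100.2 to 110.5 CPM, and Pde4d from 64.4 through 66.4 to 74.9 CPM. Pde10a ranged from 97.6 through 116.7 to 124.6 CPM, Pde1b from 94.7 through 108.7 to 116.3 CPM, and Crem from 12.5 through 14.1 to 16.6 CPM. Adora2a, which marks one of the classes of striatal projection neuron, varied most between vehicles, with a coefficient of variation of 22.9%, and Pde4d varied least, with 5.947%.

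Across the 218 drugs the spread was widest for Adora2a, 24.9-fold between 1.45 CPM with Nilotinib and 36.0 CPM with Theophylline. Crem followed with 3.06-fold, from 10.8 CPM with Loxapine Succinate to 33.2 CPM with Nilotinib. The other 7 genes spanned 1.64-fold for Pde4d to 2.4105-fold for Pde4b. Medians of the 9 run codes also differed most for Adora2a, 2.56-fold, from 9.32 to 23.9 CPM, against 1.098-fold to 1.24-fold for the others. Levels are therefore also given relative to the median of the libraries with the same run code.

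**Figure D1:**
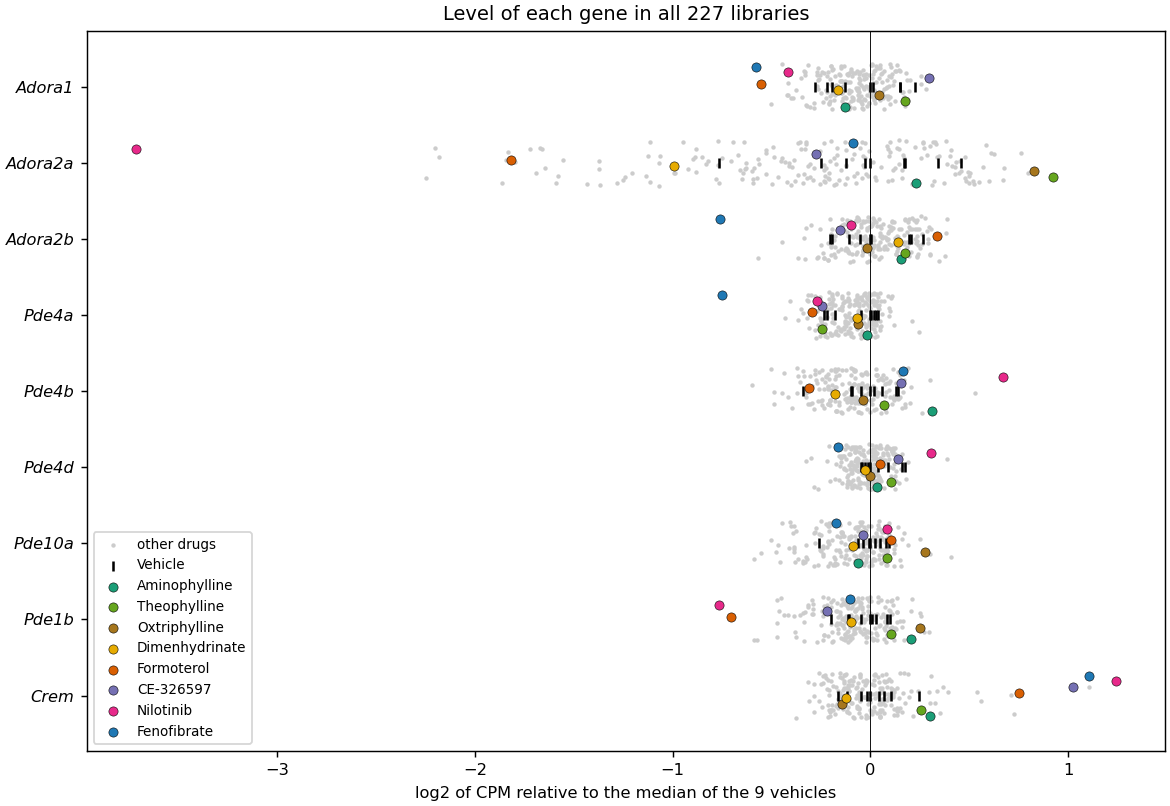
Level of each of the 9 genes in all libraries, as log2 of CPM relative to the vehicle median (horizontal axis). Grey points are drugs, black bars the 9 vehicles, and coloured points 8 named drugs. Adora2a has the widest spread, with Nilotinib lowest at 1.45 CPM, and Crem is highest with Nilotinib at 33.2 CPM.

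The cyclic AMP response element that CREB family proteins bind was searched in promoters from RefSeq (GRCm38.p6), taken as the 250 bases before each start, on both strands. Promoters matched 7 of the 9 genes, with 16 starts, and Adora2a and Crem had no entry. The full element TGACGTCA was in 0 of the 16, against 1.55% of all 32851 promoters. The shorter TGACG, which lies within the full element, was in 2 of the 16, against 17.8% of all promoters, 1 each for Pde4a and Pde4b. Both are shown as the only ones of the 16 with a match, which lies on the minus strand and is in capitals, as CGTCA. The Pde4b match begins 34 bases before the start and the Pde4a match 50 bases before it.
Pde4b, chr4:102421305-102421554, plus strand: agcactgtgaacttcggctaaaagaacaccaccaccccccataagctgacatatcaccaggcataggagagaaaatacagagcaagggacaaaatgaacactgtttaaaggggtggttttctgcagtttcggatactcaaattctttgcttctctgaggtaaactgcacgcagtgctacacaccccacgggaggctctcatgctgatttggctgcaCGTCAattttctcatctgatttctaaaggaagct
Pde4a, chr9:21183851-21184100, plus strand: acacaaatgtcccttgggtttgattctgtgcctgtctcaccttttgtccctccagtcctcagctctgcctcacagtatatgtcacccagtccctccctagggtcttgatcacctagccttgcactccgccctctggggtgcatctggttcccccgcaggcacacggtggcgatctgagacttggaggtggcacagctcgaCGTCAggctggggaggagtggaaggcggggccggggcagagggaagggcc
A match is a run of letters and shows no binding.

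With 2 of the theophylline drugs the receptor gene Adora2a was at the top of its range, and Adora1 and Adora2b were within their vehicle ranges with all 3. Theophylline had the highest Adora2a level of all libraries, 36.0 CPM, and Oxtriphylline the next, 33.7 CPM, both above every vehicle. Aminophylline had 22.3 CPM, within the vehicle range, and the highest level among the 32 libraries of its run code. Relative to the median of the run code, the log2 differences were 1.08 for Theophylline, 0.49 for Oxtriphylline and 0.56 for Aminophylline. The vehicles, centred in the same way, ran from -0.73 to 0.83, so only Theophylline was above them. The Oxtriphylline run code had no vehicle and the highest Adora2a median, 23.9 CPM. Against the 9 vehicles, the fitted log2 fold changes were 0.94 ± 0.33 (SE), 0.82 ± 0.33 and 0.14 ± 0.35. Adora1 was 239.9 CPM with Theophylline, 219 with Oxtriphylline and 194 with Aminophylline, and Adora2b 12.3, 10.8 and 12.1 CPM. All 6 of these values were within the vehicle ranges.

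Dimenhydrinate, the drug with a chlorinated theophylline, had a low Adora2a level, 9.55 CPM, below all 9 vehicles. Its run code was the one with the lowest median, 9.32 CPM, and the log2 difference from that median was 0.01 where the fold change against the vehicles was -1.09 ± 0.40. The single vehicle of that run code had 15.98 CPM. The other 8 genes were within the vehicle range with Dimenhydrinate.

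Among the phosphodiesterases, Pde1b was above the highest vehicle, 116.3 CPM, with each of the theophylline drugs. It had 129 CPM with Oxtriphylline, 125 CPM with Aminophylline and 117 CPM with Theophylline, and 102 CPM with Dimenhydrinate. Relative to the run-code median, Pde1b was 0.172 with Oxtriphylline, 0.271 with Aminophylline and 0.196 with Theophylline on the log2 scale. The vehicles ran from -0.213 to 0.218, so only Aminophylline stayed above them. Pde4b reached 124 CPM with Aminophylline, the third highest of all libraries, against 105 CPM with Theophylline, 97.5 CPM with Oxtriphylline and 88.6 CPM with Dimenhydrinate. Pde10a was 141 CPM with Oxtriphylline, also the third highest, against 124 CPM with Theophylline, 112 CPM with Aminophylline and 110 CPM with Dimenhydrinate. Pde4a was 82.6 CPM with Theophylline, just under the lowest vehicle, and within the vehicle range with the other xanthine drugs. Centred on run code, Pde4a with Theophylline was -0.15, within the vehicle range of -0.21 to 0.20. Pde4d lay between 65.3 and 71.5 CPM with all 4 drugs, within the vehicle range.

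Crem was 17.3 CPM with Aminophylline and 16.8 CPM with Theophylline, both above the highest vehicle and each the highest of its run code. It was 12.7 CPM with Oxtriphylline and 12.9 CPM with Dimenhydrinate, within the vehicle range. Relative to the run-code median, Crem was 0.37 with Theophylline and 0.24 with Aminophylline on the log2 scale. With Oxtriphylline it was -0.06 and with Dimenhydrinate -0.17. The centred vehicles ran from -0.14 to 0.29, so only Theophylline was above them, and Dimenhydrinate was below them. In all, 3 of the 9 genes were above the vehicles with Aminophylline and with Oxtriphylline. With Theophylline 3 were above and 1 below, and with Dimenhydrinate 1 was below. Centred on run code, the 3 with Oxtriphylline (Adora2a, Pde10a and Pde1b) were within the range of the centred vehicles. Over all 15439 genes with enough reads, 24% lay outside the vehicle range with Aminophylline, 18.8% with Theophylline, 13.1% with Oxtriphylline and 22.8% with Dimenhydrinate. Doses may differ, so the drugs are set side by side and their differences were not tested. The striatal markers summed to 346 CPM with Theophylline, 373 with Oxtriphylline, 250.02 with Aminophylline and 243 with Dimenhydrinate, and their part in the Adora2a and Pde1b values was not tested.

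Another phosphodiesterase gene was high with Aminophylline alone of the xanthine drugs. Pde3a, whose product is inhibited by cyclic GMP, was 39.1 CPM with Aminophylline, against 14.5 CPM with Theophylline, 13.0 CPM with Oxtriphylline, 18.4 CPM with Dimenhydrinate and 14.9 to 23.9 CPM in the vehicles. It was the one gene of the 12 other phosphodiesterases past an adjusted p of 0.05 with Aminophylline (edgeR), where 0.486% of all genes were past it, against 0% with Theophylline and with Oxtriphylline. Of 8 genes of adenosine handling, 8 adenylyl cyclases, 9 of protein kinase A, 7 of the CREB family and its coactivators and 15 CREB target genes, 0 were past it in either direction with Aminophylline, Theophylline or Oxtriphylline. The CREB target genes had a median log2 fold change of 1.00 with Theophylline, -0.24 with Aminophylline and -0.37 with Oxtriphylline, where the median of all genes was -0.01 with each. With Theophylline, 14 of 14 activity-regulated genes were above the vehicle mean, with a median of 1.57. The other xanthine drugs had 5 of 14 above it with Aminophylline (median -0.09), 1 with Oxtriphylline (-0.42) and 0 with Dimenhydrinate (-2.33). Most of the Dimenhydrinate difference was shared by its run code. The mean log2 level of the 14 genes was -1.876 relative to the vehicles and -0.128 relative to the run-code median. That mean was 2.006 and 2.102 with Theophylline, 0.308 and 0.466 with Aminophylline, and -0.052 and 0.219 with Oxtriphylline. Relative to the vehicle mean, the vehicle of the Dimenhydrinate run code was at -1.621, and those of the Theophylline run code at 1.278 and 1.258.

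With Formoterol, the receptor genes Adora1 and Adora2a were low and Adora2b was high. Adora1 was 145 CPM, the second lowest of all libraries and below every vehicle (log2 fold change -0.55 ± 0.21). Adora2a was 5.39 CPM, also below every vehicle, at -1.87 ± 0.43 against the vehicles and -0.75 against the median of its run code, where it was the third lowest of 32. Adora2b was 13.8 CPM, the fifth highest of all libraries (0.31 ± 0.17). Relative to the run-code median Adora2b was 0.27, the third highest of 32 and within the centred vehicle range of -0.25 to 0.31. Pde1b was 66.8 CPM, the second lowest of all (-0.69 ± 0.14). Pde4a was 79.8 CPM, below the vehicles, Pde10a 125 CPM, above them, and Pde4b and Pde4d were within the vehicle range at 80.9 and 68.7 CPM. Centred on run code, Pde4a was -0.12, within the vehicle range of -0.21 to 0.20. Pde10a was 0.249, still above the highest centred vehicle, 0.244.

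Crem was 23.7 CPM with Formoterol, above every vehicle and every other library of the run code (0.72 ± 0.12). Pde3a was 55.9 CPM, the highest of all libraries. In all, 7 of the 9 genes lay outside the vehicle range, where 46% of all genes did. The excitatory neuron markers summed to 863 CPM with Formoterol, against 1327 to 2458 CPM in the vehicles, the striatal markers to 191 CPM, and the astrocyte markers to 7516 CPM against 5416 to 7483 CPM. All 14 activity-regulated genes were below the vehicle mean, with a median of -2.56. Most of that difference was shared by the libraries of its run code: the mean log2 level of the 14 genes was -2.08 relative to the vehicles and -0.33 relative to the run-code median. The part of these shifts in the values of Adora1, Adora2a, Adora2b, Pde1b and Crem was not tested.

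With CE-326597, a compound known here by its code name, Crem and Adora1 were high. Crem was 28.6 CPM, above every vehicle and the fourth highest of all libraries (1.06 ± 0.12, and 1.201 above the median of its run code). Adora1 was 261 CPM, the highest of all libraries (0.37 ± 0.19). Adora2a, at 15.7 CPM, and Adora2b, at 9.81 CPM, were within the vehicle range. Pde4b, at 111 CPM, was just above the vehicles, and Pde4a, at 82.6 CPM, and Pde1b, at 93.4 CPM, were just below them. Pde4d and Pde10a were within their range at 73.3 and 114 CPM. Centred on run code, Pde4a (-0.19) and Pde1b (-0.15) were within the vehicle ranges, whose lowest value was -0.21 for each. Pde4b (0.25) stayed above the highest centred vehicle, 0.24.

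With CE-326597, 5 of the 9 genes lay outside the vehicle range, where 24.7% of all genes did. Pde3a was 17.3 CPM, within the vehicle range, unlike with Formoterol. The 15 CREB target genes had a median log2 fold change of 1.04, with 13 above the vehicle mean and 0 past the threshold, where 0.0195% of all genes were past it, and all 14 activity-regulated genes were above it with a median of 1.49. The striatal markers summed to 388 CPM, above the vehicles, 130.1 CPM of it from Penk. Of the 54 pairs of gene and drug described for the 6 libraries, 23 lay outside the vehicle range, and 13 did when each library was centred on the median of its run code.

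**Figure D2:**
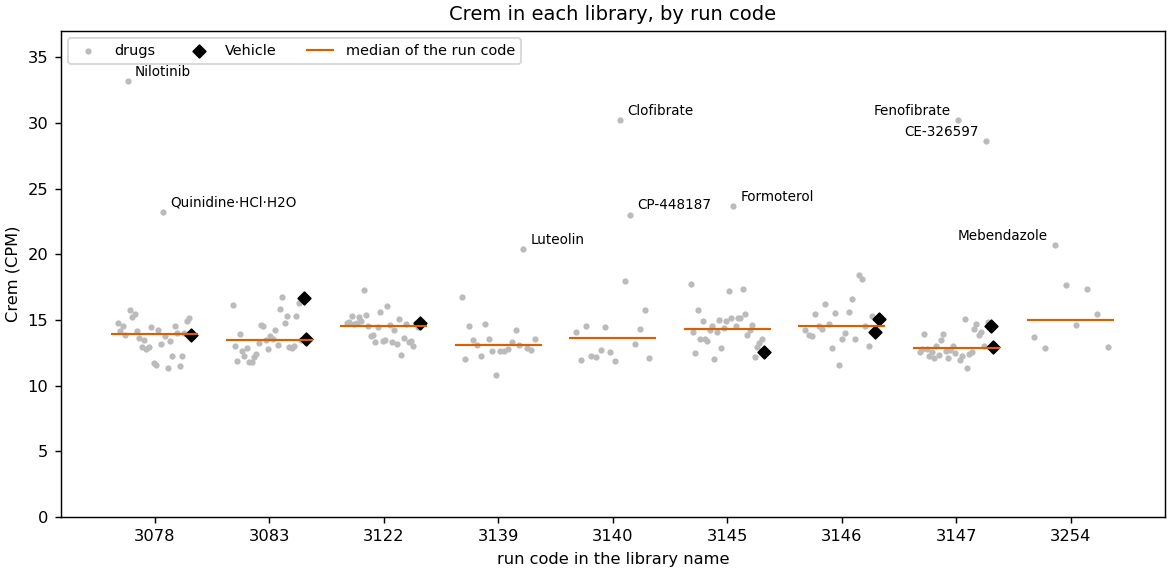
Crem level in CPM (vertical axis) in each library by run code (horizontal axis), with vehicles as diamonds, drugs as grey points and an orange line at the median of the run code. Libraries above 20 CPM are named, and the vehicles sit between 12.5 and 16.6 CPM.

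The other 212 drugs were tested one by one against the 9 vehicles with edgeR's quasi-likelihood test over all genes. All 9 genes passed the filter on low counts in each of these fits. Crem rose with Nilotinib, Fenofibrate and Clofibrate, Adora2a and Pde1b fell with Nilotinib, Pde4b rose with it, and Pde4a and Adora2b fell with Fenofibrate. All but the Clofibrate call came from Nilotinib and Fenofibrate. Their own shares of all genes called, given below, were far above the share pooled over drugs. These 8 calls are set against 0.12% of gene and drug pairs called over the 212 drugs, 0.0658% up and 0.0538% down. At an unadjusted p under 0.05, Crem was higher with 11 drugs and lower with 6. All 8 also passed with DESeq2, which called 0.246% of gene and drug pairs, and in a limma model with run code as a term, which called 0.445%.

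Crem was 33.2 CPM with Nilotinib, an inhibitor of the ABL, KIT and PDGF receptor kinases, against 14.2 ± 1.23 CPM in vehicle. The log2 fold change was 1.128 ± 0.12, with an adjusted p of 0.000451 (edgeR). With Fenofibrate, a fibrate that activates PPAR alpha, Crem was 30.2 CPM (1.06 ± 0.12, adjusted p 0.000406, edgeR). With Clofibrate, a second fibrate, it was also 30.2 CPM (1.06 ± 0.12, adjusted p 0.0377, edgeR). Each of the 3 libraries was above all 9 vehicles. Nilotinib changed 12.2% of all genes (6.2% up, 6.02% down) and Fenofibrate 10.6% (5.82% up, 4.78% down), whereas with Clofibrate Crem was the only gene called, 0.00648% of those tested. The Clofibrate run code had no vehicle, and the call moved above the threshold without any 1 vehicle except Vehicle 6, up to an adjusted p of 0.183 (edgeR).

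DESeq2 also called Crem with Quinidine·HCl·H2O (0.70 ± 0.14, adjusted p 0.000703), CP-448187 (0.76 ± 0.14) and Luteolin (0.58 ± 0.15). The model with run code kept CP-448187 (0.76 ± 0.23, adjusted p 0.0372, limma) and Luteolin (0.67 ± 0.23, adjusted p 0.0433, limma). The lowest Crem levels relative to the run code were with Enalapril (11.6 CPM), Loxapine Succinate (10.8 CPM) and Raltegravir (11.3 CPM), and 0 drugs lowered Crem past the threshold with edgeR, DESeq2 or the model with run code.

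Adora2a fell further with Nilotinib than with any other drug. It had 1.45 CPM, or 58 reads, against 19.5 ± 4.45 CPM in vehicle, 18.6 CPM in the vehicle of the same run code and 4.004 CPM in the next lowest library of that run code. The log2 fold change was -3.85 ± 0.52 (adjusted p 0.00173, edgeR) and -2.97 in the model with run code. Pde1b was 63.9 CPM, the lowest of all libraries, against 106.8 ± 7.15 CPM in vehicle (-0.84 ± 0.14, adjusted p 0.00569, edgeR). Pde4b went the other way, to 159.6 CPM, the highest of all libraries, against 98.8 ± 9.61 CPM (0.59 ± 0.16, adjusted p 0.041, edgeR), a call lost without Vehicle 1, 4, 5 or 9. Pde4d was 82.0 CPM, above the vehicles, at 0.17 ± 0.12 with an adjusted p of 0.358 (edgeR), and passed only in the model with run code (0.28 ± 0.10, adjusted p 0.0335, limma). Adora1, at 159 CPM, and Pde4a, at 81.2 CPM, lay below the vehicles without passing the test, and Adora2b, at 10.2 CPM, and Pde10a, at 123 CPM, within their range.

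The sums of the striatal and of the excitatory neuron markers were also low with Nilotinib, although some striatal markers were not. The 9 striatal markers summed to 189 CPM against 236 to 347 CPM in the vehicles. Drd2, the dopamine receptor gene of the neurons that express Adora2a, was 3.24 CPM against 8.90 ± 1.98 CPM, and Gpr6, of the same neurons, 6.06 CPM against 9.99 ± 2.18 CPM. Drd1, of the other striatal class, was 9.88 CPM against 10.6 ± 0.979 CPM, and Ppp1r1b 43.6 CPM against 104 ± 19.5 CPM. Rarb was higher, 40.6 CPM against 29.8 ± 3.77 CPM. Rgs9, at 18.6 CPM, and Tac1, at 8.61 CPM, were above their vehicle means of 17.7 and 7.28 CPM. The 7 excitatory markers summed to 929 CPM, and the 5 oligodendrocyte precursor markers, which include the PDGF receptor gene Pdgfra, to 239 CPM against 468 to 552 CPM. Their part in the changes of Adora2a and Pde1b was not tested.

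Other genes of the cyclic AMP pathway also changed with Nilotinib, and their counts stand against the 12.2% of all genes called. Of 8 adenylyl cyclase genes 3 fell, Adcy7 by 1.09, Adcy5 by 0.92 and Adcy1 by 0.81 on the log2 scale, and 0 rose. Of 9 protein kinase A genes 2 fell, the regulatory subunit gene Prkar1b (-0.72 ± 0.17) and the inhibitor gene Pkig (-0.47 ± 0.13). Of 7 CREB family and coactivator genes 3 rose, Atf1 (1.02 ± 0.16), Crebbp (0.69 ± 0.13) and Crtc2 (0.52 ± 0.14), and Crtc1 fell (-0.41 ± 0.10). Of 15 CREB target genes 2 rose, the kinase gene Sik1 (1.61 ± 0.40) and Gem (1.41 ± 0.37), and the neuropeptide gene Vip fell (-1.33 ± 0.38). Pde3a was the 1 of 12 other phosphodiesterases that changed, at 32.3 CPM against 18.4 ± 2.9205 CPM (0.72 ± 0.18). The median over the 9 genes of the report was -0.21, against -0.01 over all genes.

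With Fenofibrate the genes that fell were a PDE4 gene and the receptor gene Adora2b. Pde4a was 58.2 CPM, the lowest of all libraries, against 93.7 ± 7.15 CPM in vehicle (-0.72 ± 0.13, adjusted p 0.00574, edgeR). Adora2b was 6.44 CPM, also the lowest of all, against 11.1 ± 1.35 CPM (-0.81 ± 0.19, adjusted p 0.0212, edgeR). Both stayed past the threshold without each vehicle in turn. Adora1 was 142 CPM, the lowest of all libraries (-0.59 ± 0.21, adjusted p 0.105, edgeR), and passed with DESeq2 (adjusted p 0.0404) and in the model with run code (-0.54 ± 0.16, adjusted p 0.00387, limma). Adora2a was 17.9 CPM, Pde1b 101.1 CPM and Pde10a 103 CPM, all within the vehicle range. Pde4d, at 59.4 CPM, was below the vehicles and Pde4b, at 112 CPM, above them, and neither passed the test. Clofibrate had 81.0 CPM of Pde4a, below the vehicles, and 9.64 CPM of Adora2b, within their range, at -0.24 ± 0.12 and -0.23 ± 0.18.

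Of the other pathway genes with Fenofibrate, whose counts stand against the 10.6% of all genes called, Pde3a rose (43.1 CPM, 1.199 ± 0.17), and Pde5a (-0.86 ± 0.23) and the ectonucleotidase gene Entpd1 (-1.14 ± 0.18) fell. Of 15 CREB target genes 2 rose, Gem (2.1402 ± 0.34) and the clock gene Per1 (1.77 ± 0.43). Adenylyl cyclase, protein kinase A and CREB family genes had 0 calls of 8, 9 and 7. The inhibitory neuron markers summed to 980.3 CPM with Fenofibrate against 1356 to 2249 CPM in the vehicles, and the astrocyte markers to 8287 CPM against 5416 to 7483 CPM. Their part in the falls of Adora2b and Pde4a was not tested.

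Several drugs stood at the ends of a gene's range without passing the edgeR test. Pde4b was 145 CPM with Ciprofibrate, a further fibrate (0.50 ± 0.16, adjusted p 0.228, edgeR). Relative to run code, Pde10a was highest with the thyroid hormones Levothyroxine·Na, 155 CPM, and Liothyronine·Na, 139 CPM, which share a run code with a median of 108 CPM. Pde4d was highest with Luteolin, 86.9 CPM (0.40 ± 0.11, adjusted p 0.223, edgeR), and passed there in the model with run code (0.43 ± 0.10, adjusted p 0.00169, limma). Adora2b was second lowest with Luteolin, 7.36 CPM, and likewise passed in the model with run code (-0.52 ± 0.16, adjusted p 0.0222, limma). Pde10a was 82.5 CPM with Oxaprozin, 85.5 CPM with Ursodiol and 88.4 CPM with Naloxone·HCl, and the model with run code called Ursodiol (-0.44 ± 0.15, adjusted p 0.0371, limma). DESeq2 called lower Pde10a with Oxaprozin, Bumetanide and Nortriptyline·HCl, at adjusted p-values of 0.0174, 0.0492 and 0.0474. Adora1 was 258 CPM with Carvedilol and 254 CPM with CP-448187, at adjusted p-values of 0.868 and 0.909 (edgeR).

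For Adora2a the number of drugs called differed between the tests. DESeq2 called lower Adora2a with 12 of the 212 drugs, edgeR with 1. Of the 12, 8 carried a run code with a median of 12.7 CPM and 4 another with 9.32 CPM, the lowest medians of the 9. They included Orlistat (4.004 CPM), Oxaprozin (4.184 CPM), Nortriptyline·HCl and Liothyronine·Na. At an unadjusted p under 0.05 with edgeR, 42 drugs had lower Adora2a and 1 higher, and the model with run code left 8 lower and 2 higher. Nilotinib alone was called in that model. DESeq2 also called lower Pde1b with Nortriptyline·HCl, Orlistat and Oxaprozin, at log2 fold changes of -0.57, -0.56 and -0.49. The highest Adora2a levels relative to the run code were with Cyproheptadine·HCl Sesquihydrate (21.2 CPM), Theophylline and Clonazepam (17.4 CPM).

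Drug classes that act on neighbouring steps were then compared with vehicle, with each drug as 1 replicate of its class. Of the 9 genes, 1 changed in any of the 6 classes tested: Pde4d fell with the benzodiazepines, positive modulators of the GABA-A receptor. Pde4d was 54.0 CPM with Oxazepam and 53.1 CPM with Temazepam, and the 5 drugs ranged from 53.1 through 54.5 to 61.01 CPM, with a mean of 56.6 ± 3.79 CPM (SD, n = 5). All were below the lowest vehicle, 64.4 CPM, so the groups did not overlap, and 2.52% of the genes tested lay below every vehicle in all 5 libraries. The log2 fold change was -0.26 ± 0.06 (adjusted p 0.0344, edgeR), where 3.86% of all genes were called and 1.91% in this direction. The model with run code gave -0.22 ± 0.04. The call was lost, up to an adjusted p of 0.0605, without Vehicle 5, 6, 7 or 8, and up to 0.0923 without Clonazepam, Oxazepam, Temazepam or Triazolam (edgeR).

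The other 8 genes overlapped with vehicle in the benzodiazepine libraries. Crem was 12.7 ± 0.589 CPM against 14.2 ± 1.23 CPM, at -0.15 ± 0.06 (adjusted p 0.212, edgeR), and Adora1, Adora2a and Adora2b were at -0.03, -0.12 and 0.04. Along the pathway, the adenylyl cyclase gene Adcy8 fell (-0.90 ± 0.19), the inhibitor gene Pkia rose (0.45 ± 0.12) and the beta1 receptor gene Adrb1 fell (-0.54 ± 0.10), and 0 of 7 CREB family and coactivator genes were called. Of 14 CREB target genes 5 fell, Nr4a1 (-2.88 ± 0.62), Pcsk1 (-1.78 ± 0.38), Fosl2 (-1.38 ± 0.34), Rgs2 (-1.31 ± 0.27) and Nr4a3 (-1.24 ± 0.29), and 0 rose. Of 14 activity-regulated genes 11 fell.

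The dihydropyridines Nifedipine, Nimodipine and Felodipine, which block L-type calcium channels, also left Pde4d below all vehicles, at 57.6 to 61.9 CPM. The log2 fold change was -0.22, with a 95% interval of -0.36 to -0.08 and an adjusted p of 0.838 (edgeR). With 3 libraries 0 genes passed the threshold, and 0.902% of genes lay below every vehicle in all 3. Unadjusted, 3 of the 9 genes had a p under 0.05 (edgeR), all lower: Pde4d, Pde10a and Crem. At that cut were 861 of all 14974 genes tested, in either direction. DESeq2 and the model with run code called 0 of the 9.

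The PDE5 inhibitors Sildenafil Citrate and Tadalafil, which spare cyclic GMP, changed 0 of the 9 genes and 0% of all genes. DESeq2 and the model with run code also called 0 of the 9. At an unadjusted p under 0.05 (edgeR) were 0 of the 9 and 110 of all 15116 genes tested. With only 2 libraries, the 95% intervals were wide, from -0.70 to 0.31 for Adora2a and from -0.26 to 0.08 for Pde4d on the log2 scale. The 10 beta blockers also changed 0 of the 9 with edgeR, DESeq2 and the model with run code, where edgeR called 0% of all genes. These drugs had 1 of the 9, Adora2a, at an unadjusted p under 0.05 (edgeR), as were 1416 of all 14572 genes tested. Their Adora2a ranged from 5.32 through 13.7 to 24.003 CPM, with a mean of 13.4 ± 5.62 CPM, at -0.56 ± 0.23 (adjusted p 0.414, edgeR) and -0.24 ± 0.18 with run code. Crem was 14.5 ± 0.688 CPM with beta blockers, at 0.01 with a 95% interval of -0.08 to 0.10. The 8 agonists of Gi-coupled receptors changed 0 as well, where edgeR called 0% of all genes. An unadjusted p under 0.05 was found for 1733 of all 14625 genes tested and for 2 of the 9 (edgeR). These 2 were Pde4b (-0.18 ± 0.07) and Pde4d (-0.11 ± 0.05), each with an adjusted p of 0.371 (edgeR). Those were -0.07 and -0.03 in the model with run code.

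The 6 flavonoids changed 0 of the 9 genes with edgeR, which called 0% of all genes, and with DESeq2. At an unadjusted p under 0.05 (edgeR) were 0 of the 9 and 1166 of all 14604 genes tested. Pde4d ranged from 66.3 through 70.0 to 86.9 CPM, the highest with Luteolin, at 0.11 ± 0.07 (adjusted p 0.604, edgeR). The model with run code called it, at 0.14 ± 0.04 (adjusted p 0.0433, limma), 1 of the 9 genes where 2.49% of all genes were called. Pde10a was 125 ± 10.2 CPM, at 0.14 ± 0.07 (adjusted p 0.594, edgeR).

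**Figure D3:**
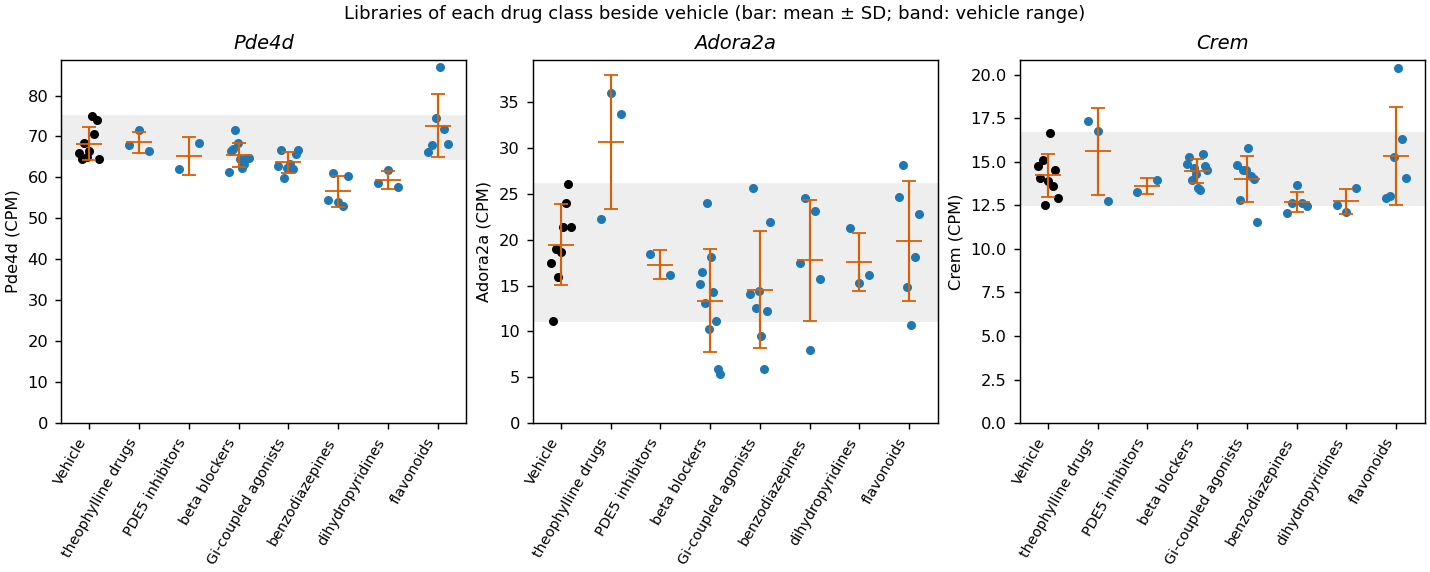
CPM of Pde4d, Adora2a and Crem (vertical axes, from 0) in the vehicles and in the libraries of each drug class, 1 point per library. Orange bars are mean ± SD and the grey band is the vehicle range. All 5 benzodiazepine and all 3 dihydropyridine libraries sit below the band for Pde4d. So do 5 of the 8 Gi-coupled agonists, 3 of the 10 beta blockers and 1 of the 2 PDE5 inhibitors.

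Adora2a and Pde1b varied together across the screen. With log2 CPM centred on the median of each run code, Pearson's r was 0.88 and Spearman's rho 0.86 over all libraries. Both had a permutation p of 1e-05, the smallest that 100000 resamples can give, and an adjusted p of 1.54e-05 over 63 relations. Within run codes r ran from 0.73 to 0.94, and without the 2 libraries farthest from the median of Adora2a it was 0.86. Pde10a followed Adora2a less closely (r = 0.54, rho = 0.58, within run codes 0.31 to 0.80, permutation p 1e-05 for each), with r = 0.59 without the 2 libraries. Crem ran against Pde4a (r = -0.45, rho = -0.34, negative in 8 of 9 run codes, permutation p 1e-05 for each), with r = -0.37 without the 2 libraries farthest from the median of Pde4a. The gene pairs were picked from the 63 after their values were seen, and libraries share run codes. The permutation tests of the 63 relations also include the 6 libraries that are otherwise only described.

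Striatal markers split into those that followed these genes and those that did not. Drd2 followed Adora2a with r = 0.88 and rho = 0.88, the signalling gene Ppp1r1b with 0.82 and 0.78, and Gpr6 with 0.80 and 0.85, each with a permutation p of 1e-05 and a positive r in 9 of 9 run codes. Penk had r = 0.60 and rho = 0.65 and Drd1 r = 0.43 and rho = 0.39, both positive in 8 run codes. Rgs9, Rarb and Tac1 had r of -0.14, -0.16 and -0.15, with adjusted permutation p-values of 0.0333, 0.0493 and 0.0385, and rho of -0.24, -0.11 and -0.12, with 0.000389, 0.126 and 0.0933. For Pde1b the values with Drd2, Ppp1r1b and Gpr6 were 0.82, 0.79 and 0.77, and for Pde10a 0.71, 0.78 and 0.69.

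**Figure D4:**
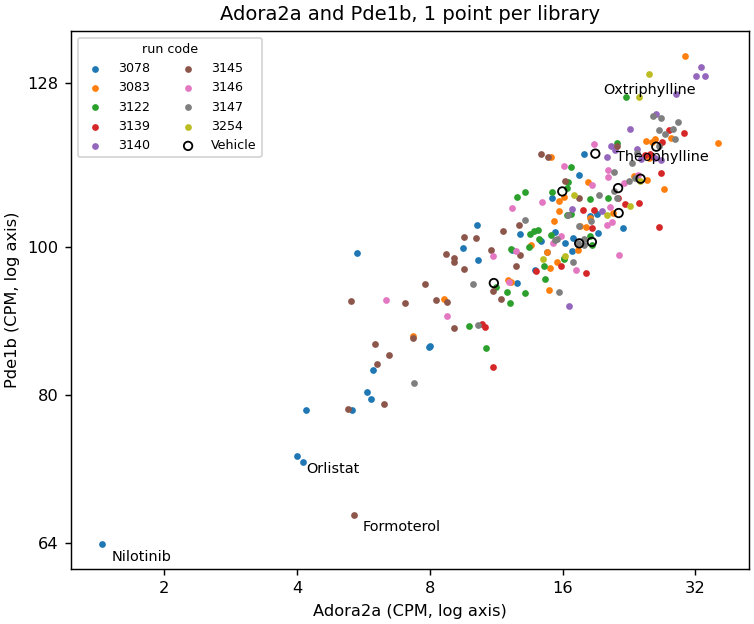
Pde1b against Adora2a, both in CPM on log axes, 1 point per library coloured by run code, with vehicles as open circles. Nilotinib sits lowest on both axes, at 1.45 and 63.9 CPM, and Theophylline farthest right, at 36.0 CPM.

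The levels of the 9 genes were also set against the activity of the cultures, scored as the mean log2 CPM of 14 activity-regulated genes relative to vehicle. The score ran from -1.62 to 1.514 in the vehicles, from -2.38 to -1.77 with the benzodiazepines, and was 2.01 with Theophylline, 2.05 with CE-326597 and -2.08 with Formoterol. Relative to the run-code median, the score was 2.102, 2.51 and -0.33 in these 3 libraries. It ran from -1.58 to 1.973 in the vehicles and from -2.23 to -0.63 with the benzodiazepines, where Clonazepam and Oxazepam overlapped the vehicles. Pde4d followed it most closely, with r = 0.70 and rho = 0.67 over all libraries, a permutation p of 1e-05 for each and adjusted p-values of 1.125e-05 and 1.286e-05 over the 9 genes. Within run codes r was 0.39 to 0.92, positive in 9 of 9. Without Theophylline and CE-326597, the libraries farthest from the median score, r was 0.69, and centred on run code it was 0.68. The permutation tests for the score include the 6 libraries that are otherwise only described. No permutation p was computed without them.

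Adora1 (r = 0.65, rho = 0.62), Pde4b (0.54 and 0.54) and Crem (0.36 and 0.25) were also higher in more active cultures in 9 of 9 run codes, each with an adjusted permutation p of 1.125e-05 for r. Adora2a (0.49 and 0.54), Pde1b (0.41 and 0.45), Pde4a (0.31 and 0.33) and Pde10a (0.39 and 0.39) had the same adjusted p for r and were positive in 6, 6, 6 and 7 run codes. Centred on run code, r was 0.54 for Adora1, 0.46 for Pde4b, 0.42 for Crem and 0.39 for Pde10a, and smaller for Adora2a (0.28), Pde1b (0.22) and Pde4a (0.15, adjusted permutation p 0.026). Adora2b was the 1 gene with the opposite sign, r = -0.16 and rho = -0.14 (adjusted permutation p 0.018 and 0.032), positive in 1 of 9 run codes and -0.17 when centred. Nilotinib and Fenofibrate had scores of 0.93 and 0.08, within the vehicle range. Relative to the run-code median Nilotinib was 2.08, above the vehicles, and Fenofibrate 0.54, within their range.

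**Figure D5:**
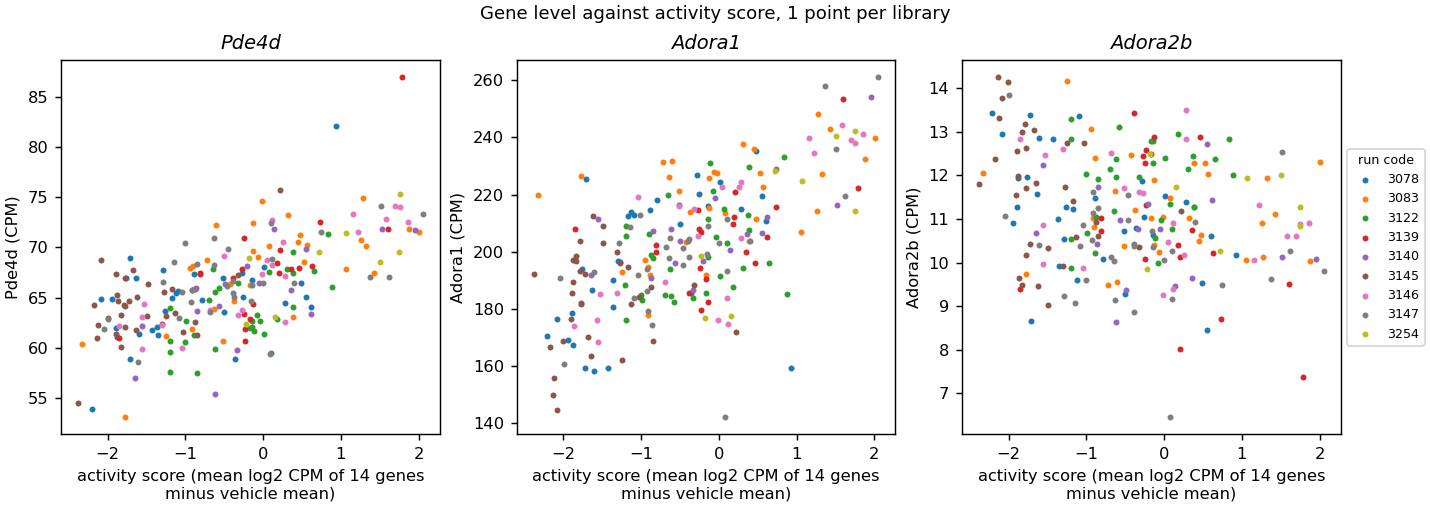
CPM of Pde4d, Adora1 and Adora2b (vertical axes) against the activity score (horizontal axis, mean log2 CPM of 14 genes minus the vehicle mean), 1 point per library coloured by run code. Pde4d and Adora1 rise with the score (r = 0.70 and 0.65) and Adora2b slopes slightly down (r = -0.16).

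For each gene, the 3 genes of most similar pattern among 13023 were found from log2 CPM centred on run code over all libraries. Adora2a was nearest to Phyhip (r = 0.90), Sowaha (0.89) and Pde1b (0.88), and Pde1b to Adora2a, Scn4b (0.87) and Phyhip (0.85). Adora1 was nearest to the growth cone gene Gap43 (0.88), Pitpna (0.87) and Galnt9 (0.87). Pde4a was nearest to St6galnac5 (0.87), Slc36a1 (0.83) and Epb4.1l1 (0.82), and Pde10a to Stxbp5l (0.81), Gnal (0.80) and Tiam1 (0.79). Gnal encodes the Golf alpha subunit that couples striatal receptors to adenylyl cyclase.

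Pde4d was nearest to Ext1 (0.79), Dip2c (0.78) and Zfp385b (0.76), and Pde4b to Rgl1 (0.77), Dhcr7 (0.74) and Flrt3 (0.74). Crem was nearest to the insulin receptor substrate gene Irs2 (0.77), Adamts1 (0.76) and Stk40 (0.76), with rho of 0.56, 0.63 and 0.61. Adora2b had the weakest neighbours, Nim1k (0.65), Cdc42ep4 (0.64) and Rgma (0.63). These are the highest of 13023 values each and are given as a description.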

How the data were processed

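The deposited count table holds whole-number counts of reads per gene, and a deposited companion table holds RPKM. Per the submitters' processing notes, STAR 2.4.0, Subread 1.4.6, edgeR 3.10.5 and limma were used with mm10, and per the labels' protocols the mRNA kit was stranded. The deposited RPKM equalled values recomputed from the counts and lengths within a relative difference of 4.99e-06. The 9 genes, drug classes and gene lists were chosen with earlier results of these data known.

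CPM used library totals. Each drug, and each class with its drugs as replicates, was compared with the 9 vehicles by edgeR 4.0.16 (R 4.3.3, TMM factors, filterByExpr, quasi-likelihood test, Benjamini-Hochberg over all genes, threshold 0.05), tested on simulated data. A fit of 1 drug takes its spread from the vehicles. Alternatives were RLE factors, no filter, DESeq2 1.42.0, limma 3.58.1 fitted to every library with run code as a factor, and leaving out each library. Relations used log2 CPM with a prior count of 1 and two-sided permutation tests of 100000 resamples, shuffled within run codes where values were centred on run code. Intervals cover 95%.

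Named besides the 9 genes are the 3 highest and lowest drugs per gene by difference from the run-code median, up to 6 genes past the threshold in the pathway lists for each comparison, and the 3 most similar genes. Drd2, Gpr6 and other single markers, Pde3a across the libraries and drugs called only by an alternative were named after their values were seen. The relation of 1 further striatal marker is not reported here.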

Additional observations from a re-analysis of the deposited data

Results flagged for a closer look

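In 45 groups of 4 to 10 libraries (the vehicles and 4 drug classes, for each of the 9 genes), 3 held a library whose gap to its nearest neighbour was large for the range of the group, and chance flags about 1 group in 20. Pde10a was 97.6 CPM in Vehicle 1, where the nearest of the other vehicles had 111.6 CPM. Adora2b was 7.36 CPM with Luteolin, where the nearest other flavonoid had 10.0 CPM. Pde4a was 85.7 CPM with Apigenin, where the nearest other flavonoid had 92.6 CPM.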

How the results depend on the processing

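Counts of genes called moved with the test. The 8 calls in single drugs were 29 with DESeq2 and 15 in the limma model with run code, 12 of the 29 being Adora2a falls, and 6 to 8 when a vehicle was left out of the fits of those drugs, an alternative added after the data were seen. The 1 call for the benzodiazepines ranged from 0 to 1 when a library was left out. The 0 calls for the flavonoids became 1 in the model with run code, and the 0 calls for the PDE5 inhibitors, beta blockers, Gi-coupled agonists and dihydropyridines stayed at 0 under each alternative run. The 23 gene and drug pairs outside the vehicle range were 13 after centring on run code and 23 to 26 when a vehicle was left out. With Dimenhydrinate, Adora2a, Pde4d and Pde1b were below the vehicle mean, and 0.0125, 0.00214 and 0.0456 above the run-code median on the log2 scale, with Pde1b at 0.0598 in the model with run code. The cause was not tested. The relations to the activity score kept their sign and side of the threshold for the 9 genes in both other settings. Of the other comparisons of single values, 1740 kept direction and side of the threshold, 31 moved, 20 lost the threshold and 1 gained it. No paired analysis was possible because each drug has 1 library and the vehicle numbers pair with no drug. The Nilotinib value of Adora2a rests on 58 reads, the fewest for any of the 9 genes in any library.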
